A study of Mus musculus with 16 samples.

Results

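Homozygosity for an arginine-to-histidine allele of Crebbp (RH) was set against a knockout of the same gene in mouse germinal centre B cells, gene by gene. The quantity described is a difference of effects: the log2 fold change of homozygous RH over the wild type of its own cohort, minus the log2 fold change of the knockout over the wild type of its cohort. It uses 12 of the 16 libraries of the series, 3 in each of 4 groups. RH HOMO libraries came from mice labelled RH/RH homozygous, and RH cohort WT libraries from Crebbp wild type mice of that cohort. KO libraries came from mice labelled homozygous Crebbp knockout, and KO cohort WT libraries from Crebbp wild type mice of that cohort. The other 4 libraries, heterozygous for RH, entered only the estimate of spread. All mice had been injected with sheep red blood cells, and B220+ PNA+ CD95+ cells were sorted from spleen. Per the labels both alleles are conditional in germinal centre B cells, the Cre driver is not named, and the sampling day is given as 12 in a protocol and 10 in a tag.

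In germinal centres, activated B cells diversify their antibody genes by mutation and compete for help by T cells. Crebbp encodes a histone acetyltransferase that keeps enhancers active, among them those of antigen presentation genes, and it is often mutated in lymphomas of germinal centre origin. A knockout removes the protein, whereas an amino acid change in it can leave a protein that still occupies its partners. The comparison asks which genes moved alike under the 2 alleles and which did not.

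Total counts ran from 41407419 to 93040297 per library, and Spearman correlations within a group from 0.977 to 0.991. RH cohort WT 1 carries a batch label that names the KO cohort although its title gives the RH cohort. Scores on the first principal component were 77.1 for RH HOMO 2 and 50.7 for that library, against -40.7 to 24.3 for the other 14 libraries. Ribosomal protein genes took 4.66% to 8.07% of counts in RH HOMO, 4.85% to 6.30% in RH cohort WT, 3.45% to 4.37% in KO and 4.28% to 4.51% in KO cohort WT. Mitochondrially encoded genes took 4.32% to 5.28%, 4.72% to 7.34%, 3.43% to 4.65% and 3.90% to 4.47% in the same groups. Libraries with Xist above 1000 counts, read as female, numbered 2 of 3 in RH HOMO, 1 of 3 in RH cohort WT, 1 of 3 in KO and 2 of 3 in KO cohort WT. Whether every library is a different mouse is not given in the labels. Each group held libraries above and below 1000 Xist counts, so it drew on more than 1 mouse. Libraries of the same sex within a group may still share a mouse, so the p values may understate the spread between mice. Markers of germinal centre B cells summed to 8047 to 9511 counts per 1000000 (CPM) over the 12 libraries, while T cell receptor complex genes Cd3d, Cd3e and Cd3g each averaged at most 0.153 CPM in any group.

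The targeted gene does not tell the groups apart. Crebbp (chr16:4081328-4213997 on GRCm38, minus strand) had 115, 68.6 and 126 CPM in RH HOMO against 93.2, 91.3 and 122 CPM in RH cohort WT, and 123, 137 and 108 CPM in KO against 131, 127 and 149 CPM in KO cohort WT. Both pairs of groups overlapped. The difference of effects was 0.16 ± 0.24 (log2, SE), with an adjusted p of 0.89. The labels do not say which exons were deleted, so a count over the whole gene does not check the knockout. Ep300, the close paralog of Crebbp, had a difference of -0.05 ± 0.33 (adjusted p = 0.98).

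Across the 16606 genes tested, as many genes passed the threshold for a shared effect as for a difference of effects in the main analysis, though not in others. Calls were made where edgeR's quasi-likelihood test gave an adjusted p below 0.05. RH HOMO against its wild type gave 261 calls (1.57% of genes tested) and KO against its wild type gave 216 (1.3%). Of these, 40 genes (0.241%) were called in both in the same direction, 16 higher (0.0964%) and 24 lower (0.145%). The 16 shared rises were 16.7% of the RH HOMO rises (0.578% of genes tested) and 16.8% of the KO rises (0.572% of genes tested). The 24 shared falls were 14.5% of the RH HOMO falls (0.994% of genes tested) and 19.8% of the KO falls (0.729%). The test of the difference itself called 40 other genes (0.241%), 13 with the RH HOMO effect above the KO effect (0.0783%) and 27 with it below (0.163%). An unadjusted p under 0.05 for the difference occurred at 1583 genes (9.53%). These calls depended on single libraries: without KO cohort WT 2, 8 of the 40 shared calls and 6 of the 40 called differences remained. With RH cohort WT 1 counted in the KO cohort, 21 and 12 remained. The balance of the 2 counts also changed. DESeq2 gave 114 shared calls and 243 called differences, and edgeR on 12 libraries only gave 33 and 10.

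Most genes called under 1 allele alone had no called difference between the alleles. Of 218 genes called in RH HOMO alone, 16 had a called difference (7.34%), and of 173 called in KO alone, 18 did (10.4%). The share over all genes was 0.241%. An unadjusted p under 0.05 for the difference occurred at 150 of the 218 (68.8%) and 120 of the 173 (69.4%), against 9.53% of all genes. Choosing genes called under 1 allele alone favours such a p. The KO effect had the same sign in 151 of the 218 (69.3%), and the RH HOMO effect had the same sign in 115 of the 173 (66.5%), where all tested genes gave 53.9%. The sizes were smaller under the other allele. The 96 RH HOMO rises, chosen by their RH HOMO values, had median effects of 0.82 in RH HOMO and 0.29 in KO, and the 165 falls had -1.02 and -0.30. The 95 KO rises, chosen by their KO values, had medians of 0.27 in RH HOMO and 0.98 in KO, and the 121 falls had -0.24 and -0.80.

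Correlations of the 2 effects across genes are given as a description, since genes are not replicates. Pearson's r was 0.12 and Spearman's rho 0.13 over all 16606 genes, many of them low in counts. Over the 10204 genes that averaged 2 or more log2 CPM they were 0.26 and 0.16. Over the 261 genes called in RH HOMO they were 0.58 and 0.65, and over the 216 called in KO they were 0.20 and 0.54. These 2 sets pool rises and falls, chosen for effects away from 0, which can raise a correlation. Within the RH HOMO rises they were 0.32 and 0.36, and within the RH HOMO falls 0.32 and 0.41. Within the KO rises they were -0.59 and 0.13, and within the KO falls 0.54 and 0.39.

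**Figure D1:**
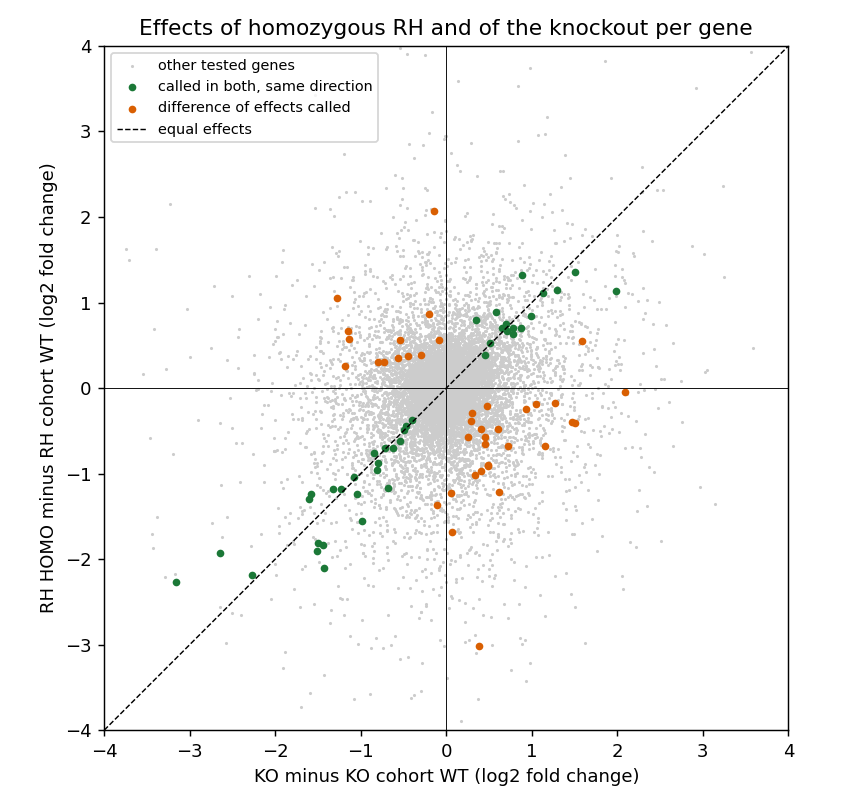
Each point is 1 of the tested genes, with the KO effect on the x axis and the RH HOMO effect on the y axis, both as log2 fold change over the wild type of the same cohort. The shared calls lie along the dashed line of equal effects, and the genes with a called difference lie mostly in the quadrants of opposite sign; 49 genes beyond 4 log2 units on either axis, 1 of them called, are outside the plot.

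The level of each set of called genes was then read in every library, as the mean log2 CPM of the genes that rose minus that of the genes that fell. The genes called in KO gave -0.93, -0.996 and -0.88 in RH HOMO against -1.55, -1.50 and -1.69 in RH cohort WT, none of which had been used to choose them. They gave 0.22, 0.04 and 0.02 in KO against -1.99, -1.93 and -1.88 in KO cohort WT. The RH HOMO libraries thus lay above their wild types without overlap, but by less than the KO libraries did. The genes called in RH HOMO gave 0.21, 0.07 and 0.04 in KO against -0.59, -0.62 and -0.70 in KO cohort WT, again without overlap, and 1.29, 1.46 and 1.33 in RH HOMO against -0.90, -0.98 and -0.80 in RH cohort WT. All libraries shared 1 estimate of spread per gene in the fit that chose the genes.

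**Figure D2:**
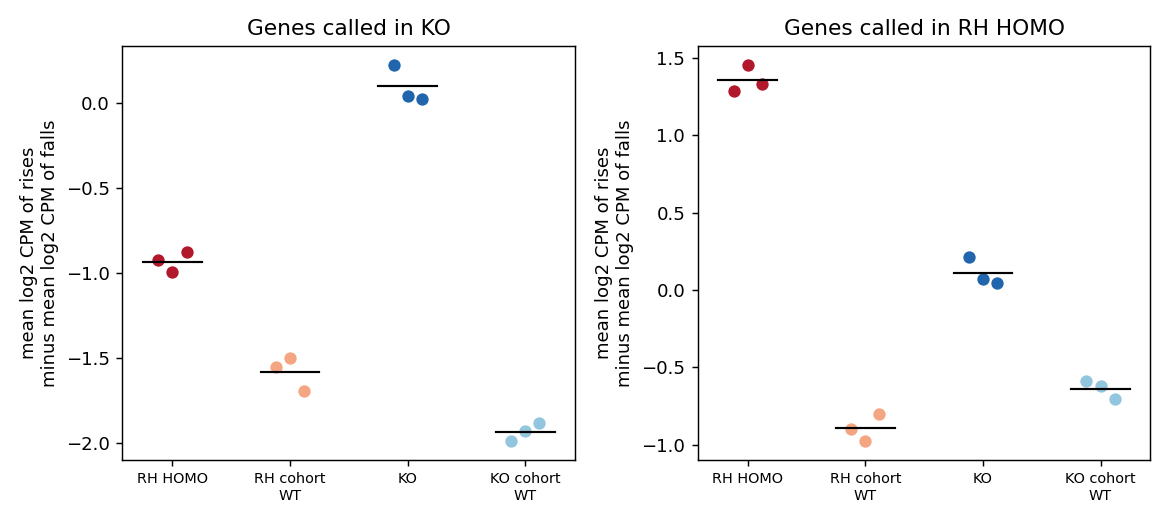
Each point is a library and each line a group mean of the mean log2 CPM of genes that rose minus that of genes that fell, for the genes called in KO (left) and in RH HOMO (right). On each side the allele that did not choose the genes stands above its own wild type, at -0.996 to -0.88 against -1.69 to -1.50 on the left and at 0.04 to 0.21 against -0.70 to -0.59 on the right.

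The 40 shared calls moved by like amounts. The 16 shared rises had median effects of 0.77 in RH HOMO and 0.78 in KO, and the 24 shared falls had -1.18 and -1.06. None had a called difference and 4 of 40 had an unadjusted p under 0.05 for it. The 95% interval of the difference lay within 1 log2 unit of 0 for 30 of the 40, against 57.8% of all genes tested. Being called in both in the same direction fixes the sign and favours similar sizes, so these counts describe the set. In none of the 40 did the wild types of the 2 cohorts have a called difference from each other, against 5.06% of all genes.

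Among the named shared falls, which averaged at least 2 log2 CPM, the lowest mean effect belonged to Sh2d1b1 (chr1:170277320-170286769), which encodes an SH2 adaptor of SLAM family receptors. It had 2.23, 1.52 and 0.999 CPM in RH HOMO against 7.23, 4.48 and 6.39 CPM in RH cohort WT, and 1.48, 1.17 and 1.26 CPM in KO against 6.34, 8.18 and 10.1 CPM in KO cohort WT. All mutant libraries were below all of their wild types. Its effects were -1.92 in RH HOMO (adjusted p = 0.0016) and -2.65 in KO (adjusted p = 0.00012), and the difference of 0.72 ± 0.38 was not called (adjusted p = 0.57). Sh2d2a, another SH2 adaptor, known from T cells, fell by 1.30 in RH HOMO and by 1.61 in KO.

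Eepd1, which encodes a nuclease of replication fork repair, had 1.73, 1.17 and 1.54 CPM in RH HOMO against 6.21, 5.88 and 6.93 CPM in RH cohort WT. In KO it had 2.19, 3.06 and 3.17 CPM, against 6.07, 7.96 and 8.58 CPM in KO cohort WT. Neither pair of groups overlapped, and the interval of its difference ran from -1.30 to -0.05. Ifnlr1, the specific chain of the interferon lambda receptor, fell by 1.81 in RH HOMO and by 1.51 in KO, with a difference of -0.31 ± 0.35. Its wild type levels were low, at 6.39 to 9.50 CPM in RH cohort WT and 8.68 to 12.7 CPM in KO cohort WT.

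Pde2a, a cyclic nucleotide phosphodiesterase, had 22.1, 18.3 and 19.1 CPM in RH HOMO against 32.0, 49.3 and 59.3 CPM in RH cohort WT, and 9.54, 11.9 and 17.1 CPM in KO against 39.3, 33.7 and 42.1 CPM in KO cohort WT. No mutant library reached a wild type one of its cohort. Selenop, a secreted selenium carrier, fell by 1.55 in RH HOMO and by 0.98 in KO, and Ccdc152, which overlaps it by 439 bases, fell by 1.24 and 1.05. Reads within the overlap of these 2 genes cannot be told apart, because the libraries carry no strand information. Myo1f, a class I myosin of leukocytes, fell by 1.18 in RH HOMO and by 1.23 in KO, with a difference of 0.06 ± 0.32.

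The named shared rises were led by Adgrl2, an adhesion G protein-coupled receptor of the latrophilin family. It had 8.02, 6.61 and 10.3 CPM in RH HOMO against 4.93, 3.13 and 3.33 CPM in RH cohort WT, and 19.6, 11.1 and 12.9 CPM in KO against 2.61, 3.85 and 4.51 CPM in KO cohort WT. The groups did not overlap in either cohort, and the KO effect of 1.99 was above the RH HOMO effect of 1.13 by an amount that was not called (difference -0.85 ± 0.37, adjusted p = 0.47). Gfi1, a zinc finger repressor of blood cell development, had 10.7, 8.20 and 10.6 CPM in RH HOMO against 3.41, 4.57 and 3.51 CPM in RH cohort WT. In KO it had 13.9, 6.18 and 8.10 CPM, against 4.41, 2.85 and 2.77 CPM in KO cohort WT. Its effects of 1.36 and 1.50 differed by -0.14 ± 0.36.

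Hsd17b11, a hydroxysteroid dehydrogenase of lipid droplets, rose by 1.32 in RH HOMO and by 0.88 in KO. Cul9, a cullin of the ubiquitin system, rose by 1.15 in RH HOMO and by 1.29 in KO, and Vwa5a by 1.11 and 1.13. Rdx, which encodes radixin, a linker of membrane and actin, rose by 0.85 and 0.99. Klhl7, a substrate adaptor of cullin ligases, rose by 0.70 and 0.88, and Nnt, the transhydrogenase of the inner mitochondrial membrane, by 0.71 and 0.78. A deletion in Nnt separates some C57BL/6 substrains, and the labels name no substrain. All 8 named rises passed the threshold in both cohorts, and no difference among them was called.

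A few more shared calls were picked out after their values were seen. Lmo2 and Lmo4, which encode LIM-only cofactors of germinal centre B cells, rose by 0.39 and 0.63 in RH HOMO and by 0.45 and 0.78 in KO. Btn2a2, a butyrophilin at at most 2.78 CPM, fell by 2.27 in RH HOMO and by 3.16 in KO. Pfkp, a phosphofructokinase of glycolysis, fell by 0.49 in each, and the difference was -0.00 ± 0.13 with a 95% interval of -0.28 to 0.27. Fcgr2b, the inhibitory Fc receptor of B cells and the Fc receptor with the smallest p for the difference, rose to 260, 314 and 279 CPM in RH HOMO, against 167, 160 and 166 CPM in RH cohort WT. It rose to 228, 216 and 233 CPM in KO, against 173, 180 and 179 CPM in KO cohort WT. The RH HOMO effect of 0.79 and the KO effect of 0.35 differed by 0.44 ± 0.11, which did not pass (adjusted p = 0.11). Sh2d1b1 and Fcgr2b lie 671847 bases apart on chromosome 1 and moved in opposite directions.

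**Figure D3:**
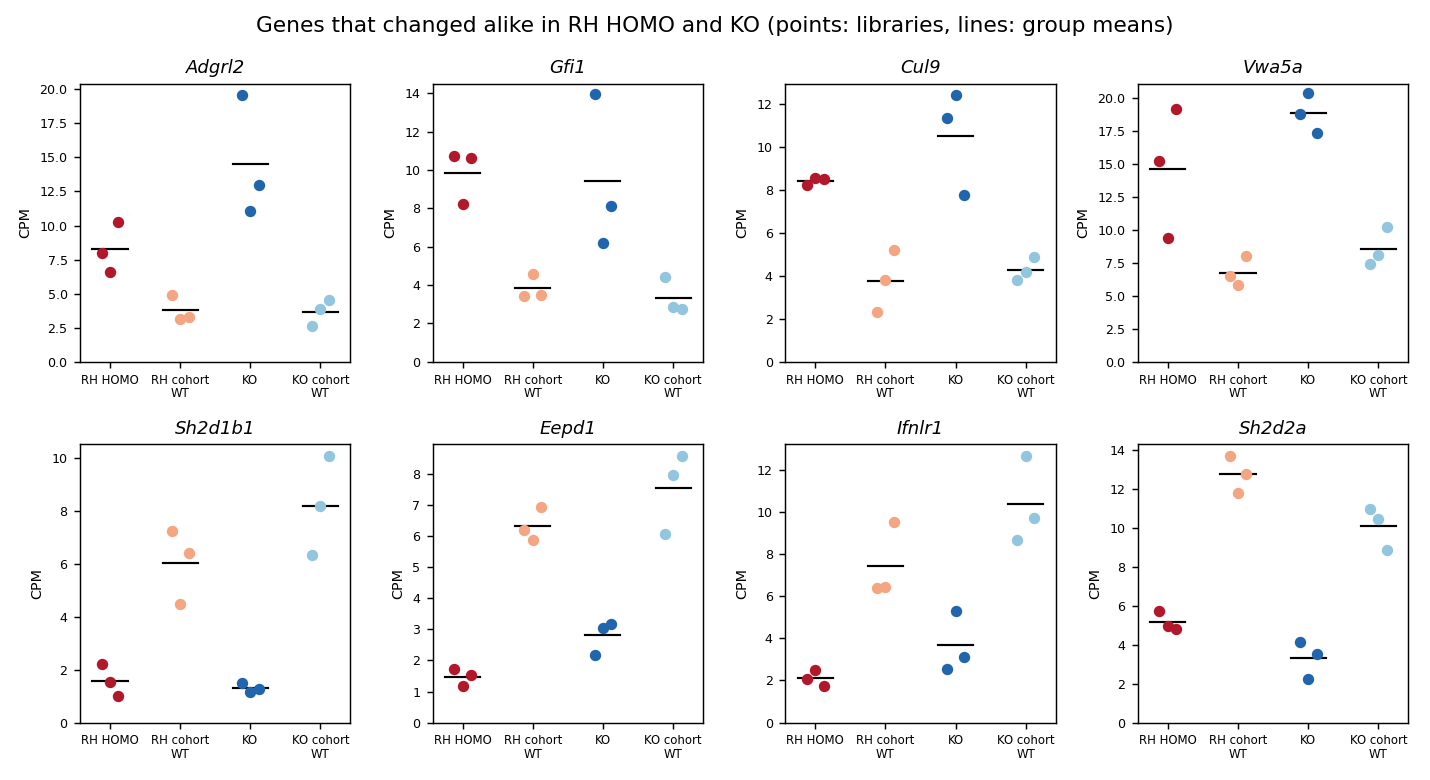
CPM per library (points) and group means (lines) of the 4 shared rises (upper row) and the 4 shared falls (lower row) with the mean effects farthest from 0 among shared calls that averaged at least 2 log2 CPM. In each panel the mutant groups lie on the same side of their own wild types, as for Sh2d1b1 at 0.999 to 2.23 CPM in RH HOMO against 4.48 to 7.23 CPM in RH cohort WT and 1.17 to 1.48 CPM in KO against 6.34 to 10.1 CPM in KO cohort WT.

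A further measure of agreement is the mean of the 2 effects, which was called at 543 genes (3.27%), 242 higher (1.46%) and 301 lower (1.81%). Of these, 528 had the same sign in both comparisons, 254 had been called in neither comparison alone, and 12 also had a called difference.

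Of the 40 genes with a called difference, 38 had effects of opposite sign. Choosing genes for a large difference favours opposite signs, and many of these signs belong to effects near 0, so the count describes the set. Of the 40, 3 were called in both comparisons, 16 in RH HOMO alone, 18 in KO alone and 3 in neither. The 2 mutant groups themselves differed, by a called test of RH HOMO against KO, at 36 of the 40 (14.2% of all genes), and the 2 wild type groups at 9 of the 40 (5.06% of all genes). That mutant test compares across cohorts and includes any shift between them.

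Il9r (chr11:32187541-32200279), the receptor chain for interleukin 9, had the largest of the 13 called positive differences. It had 17.5, 19.7 and 24.3 CPM in RH HOMO against 8.75, 6.54 and 14.4 CPM in RH cohort WT, and 6.95, 5.74 and 4.07 CPM in KO against 13.9, 16.9 and 9.79 CPM in KO cohort WT. RH HOMO was above its wild type and KO below its own, without overlap. The difference was 2.33 ± 0.43 (adjusted p = 0.028), with effects of 1.05 in RH HOMO (adjusted p = 0.093) and -1.28 in KO (adjusted p = 0.047). This call was fragile: it held in 10 of 21 alternative analyses, with adjusted p up to 0.11.

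Plbd1, which encodes a phospholipase B-like protein, was called in RH HOMO and not in KO. It had 20.0, 19.8 and 22.8 CPM in RH HOMO against 3.09, 4.37 and 7.34 CPM in RH cohort WT, and 3.89, 3.43 and 4.72 CPM in KO against 4.43, 5.55 and 3.31 CPM in KO cohort WT. The KO groups overlapped and the RH groups did not. The difference was 2.22 ± 0.34 (adjusted p = 0.010). Apobec1, BC064078 and Mgll, named after their values were seen, lie on chromosome 6 as Plbd1 does. The called differences of Apobec1 and BC064078 were 0.65 ± 0.12 and 1.06 ± 0.21, and held in 8 and 5 of 21 alternative analyses. Mgll had a called difference the other way, -1.11 ± 0.22, which held in 6.

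The other named positive differences came mainly from falls in KO. Fxyd5, a regulator of the sodium pump, had 12.5, 19.2 and 11.8 CPM in RH HOMO against 7.70, 10.7 and 8.96 CPM in RH cohort WT. In KO it had 2.97, 2.57 and 2.37 CPM, against 6.36, 5.94 and 5.22 CPM in KO cohort WT. The difference was 1.81 ± 0.28 (adjusted p = 0.011), and the KO effect of -1.15 was called while the RH HOMO effect of 0.67 was not (adjusted p = 0.10).

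Hemgn, a nuclear protein of blood precursor cells, had 14.9, 19.1 and 19.7 CPM in RH HOMO against 15.8, 16.2 and 13.1 CPM in RH cohort WT, which overlap. It had 10.6, 8.46 and 9.44 CPM in KO against 23.5, 22.0 and 19.5 CPM in KO cohort WT, which do not. The difference was 1.44 ± 0.19 (adjusted p = 0.0026) and was called in all 21 alternative analyses. The wild types of the 2 cohorts also had a called difference for this gene, RH cohort WT being lower by 0.53 on the log2 scale.

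The interferon-inducible genes Ifi27l2a and Ifi209 had differences of 1.71 ± 0.30 and 1.04 ± 0.19. Ifi27l2a had 36.0, 39.4 and 20.4 CPM in RH HOMO against 20.4, 19.2 and 24.8 CPM in RH cohort WT, and 7.78, 8.15 and 9.26 CPM in KO against 16.7, 17.4 and 21.2 CPM in KO cohort WT. RH HOMO 3 lay within its wild types, and the KO groups did not overlap. Ms4a4c, of the family of Cd20, had a difference of 1.10 ± 0.20, with effects of 0.31 in RH HOMO and -0.79 in KO.

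A total of 3 genes were called in opposite directions under the 2 alleles. Crybg1, a crystallin-fold protein, had 89.7, 67.4 and 102 CPM in RH HOMO against 52.6, 58.6 and 64.6 CPM in RH cohort WT, and 54.0, 53.2 and 50.6 CPM in KO against 73.1, 80.0 and 75.8 CPM in KO cohort WT. It rose in RH HOMO (adjusted p = 0.030) and fell in KO (adjusted p = 0.042), with a difference of 1.10 ± 0.18 (adjusted p = 0.015). Zfpm1, a cofactor of GATA factors, had 43.0, 33.2 and 39.3 CPM in RH HOMO against 72.1, 63.9 and 48.4 CPM in RH cohort WT, and 49.0, 43.4 and 54.5 CPM in KO against 29.7, 27.6 and 31.9 CPM in KO cohort WT. It fell in RH HOMO and rose in KO without overlap in either cohort (difference -1.39 ± 0.22, adjusted p = 0.011).

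The opposite calls of Zfpm1 went with unequal wild types. RH cohort WT exceeded KO cohort WT by 1.05 ± 0.15 on the log2 scale (adjusted p = 0.0054), whereas RH HOMO was below KO by 0.35 ± 0.15, which was not called (adjusted p = 0.13). With RH cohort WT 1 counted in the KO cohort, the difference of effects was smaller in size, at -0.85, and was not called (adjusted p = 0.47). Mef2b, a transcription factor of germinal centre B cells that activates Bcl6, showed the same arrangement. It had 243, 254 and 229 CPM in RH HOMO against 400, 348 and 330 CPM in RH cohort WT, and 262, 340 and 283 CPM in KO against 229, 259 and 256 CPM in KO cohort WT. Its difference was -0.82 ± 0.16 (adjusted p = 0.041), with RH cohort WT above KO cohort WT by 0.53 ± 0.11 (adjusted p = 0.019). The difference was called in 8 of 21 alternative analyses, with adjusted p up to 0.43.

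The third gene called in opposite directions was Iglj2, a joining segment of the lambda light chain. It lies wholly within the annotated span of the constant gene Iglc2. Iglj2 had 4.84, 4.44 and 4.52 CPM in RH HOMO against 9.41, 10.6 and 11.9 CPM in RH cohort WT, and 11.5, 13.5 and 14.2 CPM in KO against 8.33, 9.79 and 7.49 CPM in KO cohort WT. Iglc2 had 48.6, 56.9 and 41.1 CPM in RH HOMO against 96.5, 89.7 and 87.2 CPM in RH cohort WT, and 95.4, 114 and 113 CPM in KO against 73.3, 86.1 and 70.8 CPM in KO cohort WT. Both were lower in RH HOMO and higher in KO than in the wild types, with differences of -1.82 ± 0.21 (adjusted p = 0.00089) and -1.39 ± 0.17 (adjusted p = 0.0019). They cannot be read as independent, and reads may be split between lambda gene copies.

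Among the negative differences, several genes were called higher in KO and not called in RH HOMO. Dmpk, a serine/threonine kinase, had 5.83, 7.70 and 4.20 CPM in RH HOMO against 8.07, 7.99 and 7.36 CPM in RH cohort WT, and 13.0, 14.7 and 12.0 CPM in KO against 4.97, 5.43 and 3.98 CPM in KO cohort WT. The RH groups overlapped and the KO groups did not, and the difference was -1.86 ± 0.28 (adjusted p = 0.0086). Its neighbour Dmwd, 1072 bases away on chromosome 7 and named after its values were seen, had a difference of -1.24 ± 0.14 and shared the smallest adjusted p of all genes, 0.00089, with Iglj2. RH cohort WT exceeded KO cohort WT by a called amount for both neighbours, 0.70 for Dmpk and 0.62 for Dmwd.

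Dab2ip, a GTPase-activating protein that restrains Ras, had 6.18, 5.75 and 7.62 CPM in RH HOMO against 10.6, 11.8 and 8.82 CPM in RH cohort WT. In KO it had 19.5, 14.3 and 18.4 CPM, against 6.71, 7.36 and 9.31 CPM in KO cohort WT. It was lower in RH HOMO and higher in KO than in the wild types without overlap, and the difference of -1.84 ± 0.25 (adjusted p = 0.0027) was called in all 21 alternative analyses. Etv5, an ETS transcription factor downstream of growth factor signals, had 13.2, 13.0 and 13.2 CPM in KO against 5.43, 4.99 and 5.91 CPM in KO cohort WT, while RH HOMO, at 5.58 to 7.95 CPM, overlapped RH cohort WT, at 6.81 to 9.11 CPM. Its difference was -1.45 ± 0.25 (adjusted p = 0.021).

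Other negative differences came from falls in RH HOMO. Lrrc32, which holds latent transforming growth factor beta at the cell surface, had 11.4, 6.23 and 8.57 CPM in RH HOMO against 22.7, 30.7 and 30.3 CPM in RH cohort WT, and 18.1, 31.5 and 27.7 CPM in KO against 25.2, 21.0 and 27.8 CPM in KO cohort WT. Only the RH groups were separate, and the difference was -1.74 ± 0.29 (adjusted p = 0.021). Sh2b2, an SH2 adaptor of receptor kinases, had a difference of -1.34 ± 0.24, with effects of -1.01 in RH HOMO and 0.33 in KO. In both genes the fall in RH HOMO passed the test and the KO effect did not.

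Inppl1 differed in size and not in sign. The gene encodes a lipid phosphatase that limits phosphoinositide signals, and it belongs to the B cell receptor list. It had 42.0, 31.6 and 44.7 CPM in RH HOMO against 28.1, 24.7 and 27.8 CPM in RH cohort WT, and 88.9, 76.7 and 64.1 CPM in KO against 24.6, 24.5 and 27.1 CPM in KO cohort WT. Both mutants lay above their wild types without overlap. The effects of 0.55 and 1.59 differed by -1.04 ± 0.21 (adjusted p = 0.043), and only the KO effect was called. The difference held in 8 of 21 alternative analyses, with adjusted p up to 0.14.

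**Figure D4:**
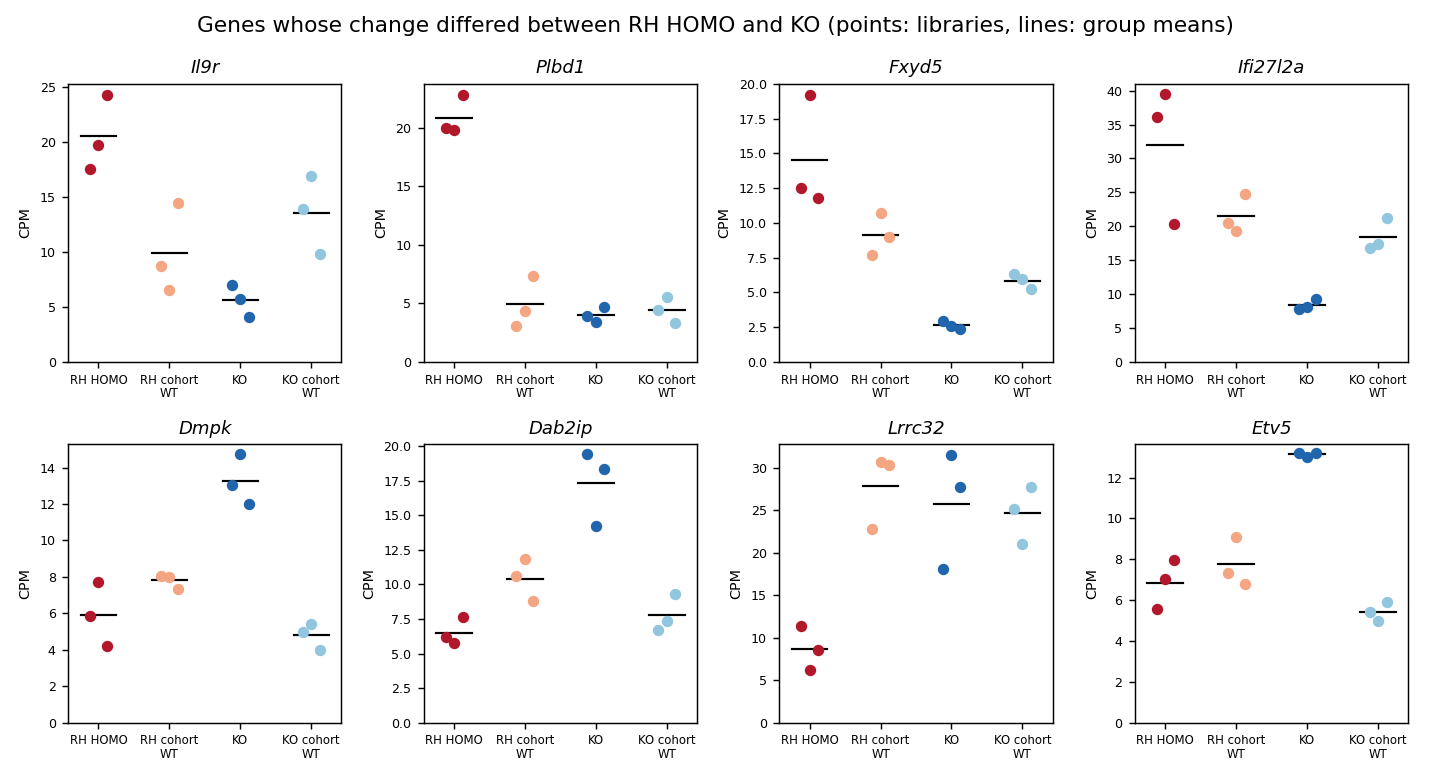
CPM per library (points) and group means (lines) of the 4 largest called positive differences (upper row) and the 4 largest called negative differences (lower row) among genes that averaged at least 2 log2 CPM, without immunoglobulin segments or predicted genes. Plbd1 stands apart in RH HOMO at 19.8 to 22.8 CPM, and Etv5 stands apart in KO at 13.0 to 13.2 CPM, while the other groups of each gene lie together.

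Antigen presentation genes had higher effects in RH HOMO than in KO as lists, although no single member passed. Class II molecules present peptides to helper T cells, and class I molecules to cytotoxic T cells. Of the 14 class II genes, none had a called difference by edgeR, and 9 had an unadjusted p under 0.05 (9.53% of all genes). DESeq2 called 5 of the 14 and limma-voom 6. Over all genes tested, DESeq2 called 109 higher and 134 lower differences, and limma-voom called 315 and 330. Of the 14, 12 had a positive difference, beside 8475 of the 16606 genes tested, and the median effects were -0.04 in RH HOMO and -0.41 in KO, beside 0.02 and -0.00 over all genes tested. In KO 6 were called lower (0.729% of all genes), and none in RH HOMO (0.994%), where Ctss was called higher (0.578%). The median difference of 0.38 ranged from 0.31 to 0.48 over the 21 alternative analyses.

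H2-Aa, an alpha chain of class II, had 1543, 1532 and 1559 CPM in RH HOMO against 1501, 1456 and 1810 CPM in RH cohort WT. In KO it had 979, 1141 and 1014 CPM, against 1498, 1645 and 1648 CPM in KO cohort WT. The RH groups overlapped and the KO groups did not, but the difference of 0.57 ± 0.15 was not called (adjusted p = 0.16). H2-Eb1 had effects of -0.04 in RH HOMO and -0.50 in KO, H2-DMa 0.01 and -0.47, and H2-Oa 0.02 and -0.58, with adjusted p of 0.27, 0.17 and 0.17 for the differences. H2-DMb2 had -0.18 and -0.47, and Lgmn, an endosomal protease, -0.24 and -0.56.

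H2-Ab1, Cd74, H2-DMb1 and H2-Eb2 were called in neither comparison. H2-Ab1 had 0.01 in RH HOMO and -0.36 in KO, and Cd74, the invariant chain, had 0.04 and -0.34. H2-DMb1 had -0.06 and -0.35, and H2-Eb2 had -0.31 and -0.58. The regulator Ciita, which switches on the class II genes, had -0.21 and -0.16, and H2-Ob had -0.14 and -0.11, so that these were the 2 members without a positive difference. Their differences changed sign in some alternative analyses, as did that of H2-Eb2, down to -0.04. The largest difference belonged to Ifi30, a thiol reductase of the antigen pathway, at 0.81 ± 0.17 (adjusted p = 0.063). It had 196, 248 and 206 CPM in RH HOMO against 181, 145 and 143 CPM in RH cohort WT, and 93.6, 124 and 122 CPM in KO against 128, 151 and 148 CPM in KO cohort WT. The protease gene Ctss followed at 0.64 ± 0.15 (adjusted p = 0.10), with 235, 284 and 251 CPM in RH HOMO against 180, 172 and 209 CPM in RH cohort WT and 158, 179 and 165 CPM in KO against 180, 194 and 195 CPM in KO cohort WT. For Ifi30 and Ctss alike, RH HOMO lay above and KO below the wild types of its cohort.

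All 21 class I genes had a positive difference, and 14 had an unadjusted p under 0.05 (9.53% of all genes). None was called by edgeR, against 6 by DESeq2 and 9 by limma-voom, which both called more differences over all genes. Median effects were 0.35 in RH HOMO and -0.13 in KO. B2m, the shared light chain of class I molecules, had 793, 1014 and 851 CPM in RH HOMO against 634, 529 and 575 CPM in RH cohort WT, and 439, 472 and 456 CPM in KO against 516, 552 and 550 CPM in KO cohort WT. RH HOMO was above and KO below its wild types, without overlap, and the difference was 0.86 ± 0.19 (adjusted p = 0.073). Nlrc5, the class I counterpart of Ciita, was at 0.51 in RH HOMO and -0.32 in KO (difference 0.82 ± 0.22, adjusted p = 0.14). H2-K1 and H2-D1, classical heavy chains that share sequence with other H2 genes, had differences of 0.59 ± 0.19 and 0.49 ± 0.15.

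The promoters of 3 class I genes and of H2-Aa are shown because class I and class II promoters are known to carry a site for CREB and ATF factors, which can recruit Crebbp. These are the 150 bases before the RefSeq start (GRCm38.p6), 5′ to 3′ on the gene's strand, with TGACG, or the full TGACGTCA in H2-Aa, in capitals. They lie at chr17:34287824-34287973 (minus strand) for H2-Aa, chr2:122147537-122147686 (plus strand) for B2m, chr17:34000348-34000497 (minus strand) for H2-K1 and chr17:35262944-35263093 (plus strand) for H2-D1.
H2-Aa: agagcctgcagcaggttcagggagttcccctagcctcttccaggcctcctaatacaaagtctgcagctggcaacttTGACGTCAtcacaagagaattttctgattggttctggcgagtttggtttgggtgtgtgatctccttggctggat
B2m: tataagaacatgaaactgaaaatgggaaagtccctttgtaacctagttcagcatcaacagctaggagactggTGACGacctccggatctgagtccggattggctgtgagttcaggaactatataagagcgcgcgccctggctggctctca
H2-K1: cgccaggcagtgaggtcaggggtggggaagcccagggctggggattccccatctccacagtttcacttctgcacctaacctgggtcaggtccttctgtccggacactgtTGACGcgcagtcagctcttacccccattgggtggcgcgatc
H2-D1: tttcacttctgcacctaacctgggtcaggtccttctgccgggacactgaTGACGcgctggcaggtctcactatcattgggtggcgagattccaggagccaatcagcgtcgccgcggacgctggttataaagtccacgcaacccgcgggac
The core of this site, TGACG, searched on both strands in the 250 bases before the start, occurred in 11 of 18 class I genes with a promoter in the table, in 2 of 11 class II genes, in 4 of 29 genes with a called difference and in 8 of 31 shared calls. It occurred in 29.8% of the 10308 tested genes matched. The full site TGACGTCA, which contains that core, occurred in H2-Aa alone among 11 class II genes, in none of the other 3 sets, and in 3.04% of all. The interferon response element, searched as GAAA repeated after a gap of 2 bases, occurred in 1 of 29 genes with a called difference, 1 of 31 shared calls, 2 of 18 class I and 1 of 11 class II genes, against 3.3% of all. A match is a stretch of letters and does not show binding.

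**Figure D5:**
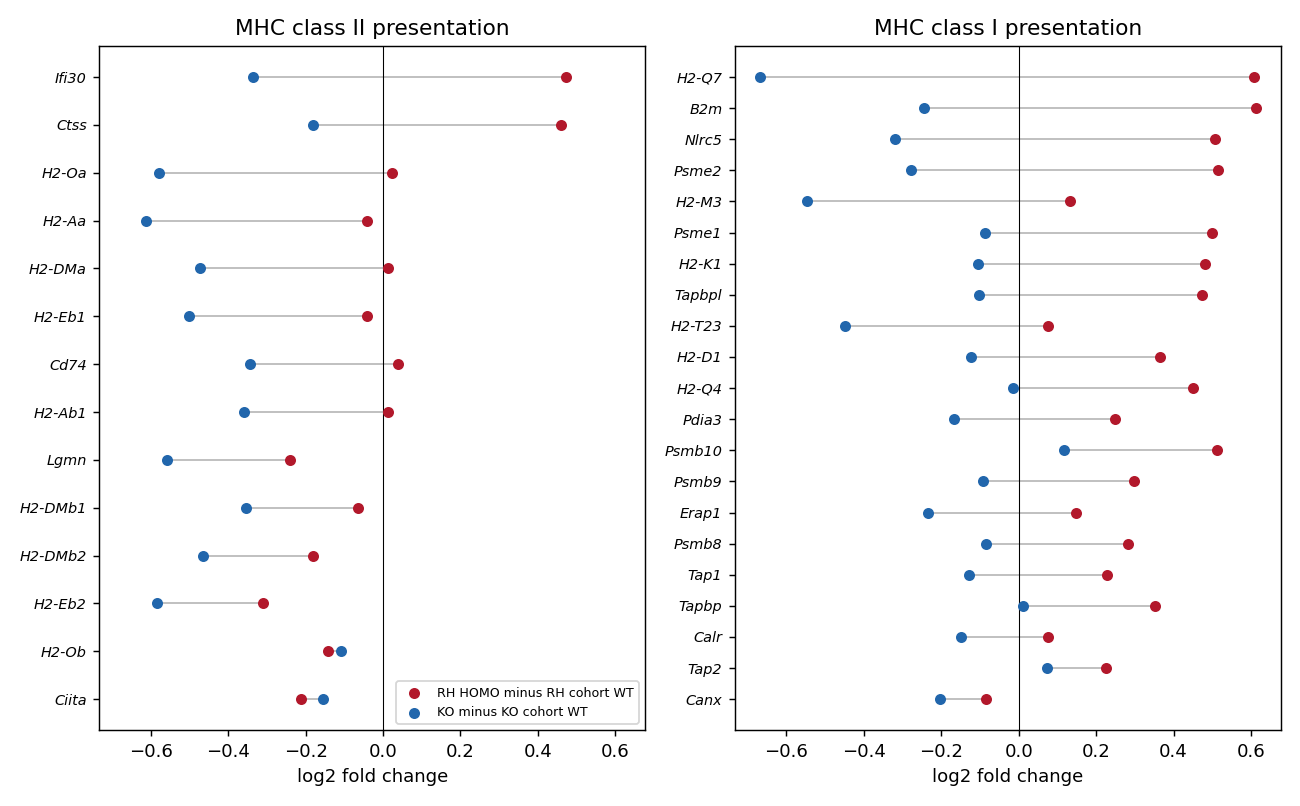
Log2 fold changes of the class II genes (left) and class I genes (right) in RH HOMO and in KO, each over its own wild type, ordered by the difference. The RH HOMO point lies to the right of the KO point for 12 of 14 class II genes and for 21 of 21 class I genes.

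Interferon gamma response genes showed the same direction. The median effects were 0.40 in RH HOMO and -0.04 in KO, and 19 of 22 differences were positive. Of the 22, 10 had an unadjusted p under 0.05 (9.53% of all genes) without any being called by edgeR. DESeq2 called 3 and limma-voom 5, beside their larger counts over all genes. Irf1, a transcription factor induced by interferon gamma, had 76.0, 109 and 84.6 CPM in RH HOMO against 38.0, 42.6 and 45.7 CPM in RH cohort WT, and 36.5, 43.8 and 32.7 CPM in KO against 40.0, 46.1 and 33.1 CPM in KO cohort WT. It rose in RH HOMO alone (effect 1.10, adjusted p = 0.013), and the difference was 1.18 ± 0.30 (adjusted p = 0.12). Irgm1 and Igtp, interferon-induced GTPases picked out after their values were seen, also rose in RH HOMO, by 1.04 and 0.76, against -0.01 and -0.16 in KO. The type I interferon list had medians of 0.40 and 0.19, with 14 of 20 differences positive and none called, and its member with the smallest p, Zbp1, had a difference of 0.65 ± 0.22 (adjusted p = 0.30).

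In KO, summed markers of T, dendritic and plasma cells lay below KO cohort WT without overlap. Those of germinal centre B cells, at 8066 to 8604 against 8706 to 9511 CPM, and of natural killer cells did so too. In RH HOMO all these sums overlapped RH cohort WT, and macrophage and monocyte sums overlapped in both cohorts. Among the tested markers of these cell types, only Mef2b of the germinal centre B cells had a called difference of effects by edgeR. T cell markers, 12 genes, summed to 214 to 256 CPM in RH HOMO, 208 to 220 CPM in RH cohort WT, 126 to 139 CPM in KO and 184 to 194 CPM in KO cohort WT. That sum was almost all Cd2 and Lck: Cd2 averaged 120, 85.8, 54.3 and 82.1 CPM in these groups, with a difference of 1.08 ± 0.24 that was not called (adjusted p = 0.066). Macrophage and monocyte markers summed to 22.7 to 36.8, 23.03 to 29.3, 19.4 to 20.8 and 19.0 to 24.8 CPM, and dendritic cell markers to 44.5 to 59.4, 46.8 to 54.3, 35.3 to 39.1 and 47.0 to 58.0 CPM. Among them Adgre1 had a difference of 1.70 ± 0.44 (adjusted p = 0.13) and Itgax 2.39 ± 0.71 (adjusted p = 0.20), both from levels of at most 2.90 CPM. Each had the smallest p of its list. A negative difference was found at 3 of 11 tested macrophage and monocyte markers and at 1 of 5 tested dendritic cell markers. Natural killer markers summed to at most 1.57 CPM and neutrophil and stroma markers to at most 0.672 CPM. Plasma cell markers summed to 674 to 706, 589 to 691, 567 to 586 and 646 to 676 CPM, and erythroid markers to at most 16.1 CPM. Follicular naive B cell markers summed to 920 to 1329, 953 to 1550, 1388 to 1638 and 1457 to 1553 CPM. In bulk libraries fewer cells of a type and less RNA per cell cannot be told apart, and the part of these markers in the differences was not tested.

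Cytokine receptors leaned the same way, with medians of 0.09 in RH HOMO and -0.35 in KO and 14 of 18 positive differences, of which Il9r was called. Of the 18, 2 were called lower in RH HOMO (0.994% of all genes) and 5 in KO (0.729%), Ifnlr1 being called lower in both. Of 11 genes tested in the list of SLAM receptors and adaptors, 2 were called lower in both (0.145% of all genes), Sh2d1b1 and Sh2d2a. Of these, only Sh2d1b1 is an adaptor of SLAM family receptors, and Sh2d2a is the adaptor known from T cells. Cd86, a light zone gene whose product costimulates T cells, had 183, 154 and 183 CPM in RH HOMO against 126, 121 and 150 CPM in RH cohort WT, and 123, 133 and 120 CPM in KO against 150, 157 and 157 CPM in KO cohort WT. RH HOMO lay above and KO below its wild types, and the difference of 0.69 ± 0.13 was called (adjusted p = 0.042). This call held in 7 of 21 alternative analyses, with adjusted p up to 0.24, and was lost with a sex term (0.058) and with a mitochondrial term (0.079). Light zone genes as a list had medians of 0.14 and -0.07, and dark zone genes -0.15 and 0.04, with 3 of 20 and 3 of 16 unadjusted p under 0.05, near the 9.53% of all genes for lists of this size.

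Immunoglobulin constant genes went the other way. Their medians were -0.33 in RH HOMO and 0.36 in KO. Of 12 differences, 10 were negative, beside 8131 of the 16606 genes tested, and 2 were called, both negative (0.163% of all genes), Iglc2 and Ighg1. Ighg1, the constant region of IgG1, was named after its values were seen and had 1094, 1105 and 1360 CPM in RH HOMO against 1677, 1630 and 1970 CPM in RH cohort WT. In KO it had 2824, 3427 and 2533 CPM, against 2014, 2033 and 2395 CPM in KO cohort WT. RH HOMO was below and KO above its wild types without overlap, with a difference of -1.02 ± 0.19 (adjusted p = 0.028). The call of Ighg1 held in 12 of 21 alternative analyses, with adjusted p up to 0.099.

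MAP kinase phosphatases, which switch off Erk, p38 and Jnk, had medians of -0.20 in RH HOMO and 0.04 in KO. Dusp14 had the called difference among the 11 tested, -1.37 ± 0.24 (adjusted p = 0.022), with 4.31, 3.67 and 4.12 CPM in RH HOMO against 7.07, 9.69 and 6.85 CPM in RH cohort WT and 8.09, 7.04 and 9.32 CPM in KO against 5.55, 6.98 and 5.93 CPM in KO cohort WT. It fell in RH HOMO, and its KO effect of 0.40 was not called. Of 20 germinal centre transcription factors, 15 had a negative difference, beside 8131 of the 16606 genes tested, and Mef2b was called. The single negative calls among the 11 phosphatases and the 20 transcription factors stand beside 0.163% of all genes. Glycolysis genes had a negative difference at 14 of 16, none called, with a median of -0.13.

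Cytosolic ribosomal protein genes had a positive difference at 27 of 30, with medians of 0.09 in RH HOMO and -0.16 in KO, and none had an unadjusted p under 0.05. Mitochondrially encoded genes had a negative difference at all 13 tested, with medians of -0.62 and -0.09, and no difference was called. Of the 13, 1 was called lower in RH HOMO (0.994% of all genes) and 1 higher in KO (0.572%). The smallest p belonged to mt-Co2, with a difference of -4.12 ± 0.97 (adjusted p = 0.088). It had 13.0, 3.30 and 0.783 CPM in KO against 0.787, 0.962 and 0.414 CPM in KO cohort WT, and the groups overlapped in both cohorts. These lists cover only part of the genes summed in the shares of counts given above. The part of those shares in other differences was not tested beyond the analysis with a mitochondrial term. In 3 further lists the member with the smallest p came near the threshold. Smarca4, the ATPase of a chromatin remodelling complex, had a difference of -0.71 ± 0.15 (adjusted p = 0.055), Fas, a death receptor, 0.58 ± 0.12 (adjusted p = 0.065), and Tle3, a corepressor, -0.98 ± 0.23 (adjusted p = 0.084). None passed. The smallest-p members of other lists were farther from it, among them Trib3 of the Atf4 targets (-1.49 ± 0.42, adjusted p = 0.18), Rgs2 of the positioning receptors (0.58 ± 0.17, adjusted p = 0.20), Bcl2l1 of the Bcl2 family (-0.52 ± 0.15, adjusted p = 0.21) and Jchain of the plasma cell genes (0.37 ± 0.11, adjusted p = 0.22). Pde4b of the Creb pathway and Ndufv2 of the nuclear respiratory chain had adjusted p of 0.54 and 0.63. Lists of the class II transcription complex, lysine acetyltransferases, DNA replication, mitosis and Myc targets had no called difference by edgeR and medians of the difference between -0.08 and 0.05.

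Of the 40 called differences, 5 lay on chromosome 7, 4 each on chromosomes 2, 6, 11 and 16 and none on chromosomes 3, 9, 14, 17 and 18. The shared calls had 5 genes each on chromosomes 5 and 9 and none on chromosomes 6, 8, 14, 18, 19 and X. Chromosome 7 holds 7.73% of the tested genes, and chromosomes 2, 6, 11 and 16 hold 7.42%, 5.55%, 7.62% and 2.95%. Chromosome 16 carries Crebbp itself, and its 4 genes with called differences were Cd86, Etv5 and the overlapping Iglc2 and Iglj2.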

How the data were processed

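The deposited file holds raw read counts per gene symbol, 48593 genes in 16 libraries. Per the submitters' processing notes the authors used CASAVA 1.8, HISAT2, featureCounts and the mm10 build; the strand setting is not given in the sources used here, and the kit does not mark strand. Groups were read from sample titles.

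Counts were fitted in R 4.3.3 with edgeR 4.0.16: filterByExpr (16606 genes), TMM, 5 group means over 16 libraries (11 residual degrees of freedom), quasi-likelihood test, Benjamini-Hochberg over all tested genes, called at 0.05. Standard errors are the fold change over the square root of F, with 95% intervals. CPM use TMM-scaled sizes. Positions are GENCODE on GRCm38, the mm10 assembly; promoters are RefSeq. The test was tried on simulated data.

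Genes were named by rule: the 8 largest called differences in each direction and the 8 shared calls in each direction with the largest mean effect (mean log2 CPM of at least 2, no immunoglobulin segments, mitochondrial genes, predicted genes or pseudogenes), all opposite calls, Crebbp, Ep300, all class II genes, and from each other list the member with the smallest p. The result for 1 gene of this rule is not reported here. Members and lists were chosen with earlier results of these data known. Replicate pairs differed beyond sampling noise (chi-square divided by its degrees of freedom, 19.6 to 209). Alternatives were DESeq2 size factors, no filter, DESeq2 1.42.0, limma-voom (limma 3.58.1), 12 libraries only, RH cohort WT 1 in the KO cohort, RH cohort WT 1 and RH HOMO 2 left out, terms for sex and mitochondrial share, and each library left out.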

Additional observations from a re-analysis of the deposited data

Results flagged for a closer look

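A called difference between the RH HOMO effect and the KO effect was found, by the edgeR test of the difference itself, at the following 20 genes of the naming rule. The positive differences (log2) were 2.33 for Il9r, 2.22 for Plbd1, 1.81 for Fxyd5, 1.71 for Ifi27l2a, 1.44 for Hemgn, 1.10 for Ms4a4c, 1.10 for Crybg1, 1.04 for Ifi209 and 0.69 for Cd86. The negative ones were -1.86 for Dmpk, -1.84 for Dab2ip, -1.82 for Iglj2, -1.74 for Lrrc32, -1.45 for Etv5, -1.39 for Zfpm1, -1.39 for Iglc2, -1.37 for Dusp14, -1.34 for Sh2b2, -1.04 for Inppl1 and -0.82 for Mef2b. Hemgn, Dab2ip, Iglj2 and Iglc2 were called in all 21 alternative analyses, while Cd86 was called in 7, Ms4a4c, Mef2b and Inppl1 in 8 each, Ifi209 in 9, and Il9r and Ifi27l2a in 10 each.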

How the results depend on the processing

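The counts of calls depended strongly on the analysis, and no called value of a named gene changed sign. Differences of effects were 13 higher and 27 lower in the analysis reported, 51 and 58 without a count filter, 109 and 134 with DESeq2, 315 and 330 with limma-voom, 3 and 7 with 12 libraries only and 4 and 11 with RH cohort WT 1 in the KO cohort; a term for mitochondrial share gave 6 higher. Genes called in both were 28 higher and 44 lower without a filter, 42 and 72 with DESeq2, 61 and 107 with limma-voom and 9 and 38 with the mitochondrial term, and 4 higher with RH cohort WT 1 in the KO cohort. The mean of effects was called at 420 higher and 518 lower with DESeq2, 671 and 735 with limma-voom, and at 156 higher with 12 libraries and 115 with RH cohort WT 1 in the KO cohort. The share of genes with the same sign was 47.3% without a filter, 49.8% with limma-voom, 48.2% with RH cohort WT 1 in the KO cohort, 50.3% without RH cohort WT 1 and RH HOMO 2, 51.8% with a sex term and 55.8% with the mitochondrial term, and Pearson's r was 0.026 without a filter, 0.043 with DESeq2, 0.071 with limma-voom, 0.022 with RH cohort WT 1 in the KO cohort, 0.065 without RH cohort WT 1 and RH HOMO 2 and 0.085 with a sex term. Leaving out 1 library gave 1 to 22 higher and 5 to 45 lower differences, 3 to 26 and 5 to 36 genes called in both, 129 to 264 and 188 to 324 for the mean of effects, 52.1% to 56.1% of the same sign and r of 0.061 to 0.16; the lowest counts of differences and of genes called in both came without KO cohort WT 2. Of the 40 called differences, 8 remained without KO cohort WT 1 or without KO 2, 20 without KO cohort WT 3, 19 without KO 3, 15 without RH HOMO 1, 11 without RH cohort WT 2 and 24 without RH cohort WT 1. Of the 40 shared calls, 16 remained without KO cohort WT 1, 20 without KO cohort WT 3, 11, 19 and 18 without KO 1, KO 2 and KO 3, 25 without RH HOMO 1 and 24 without RH cohort WT 2. The mean of effects stayed called at all 40 shared genes in all 21 alternatives. These genes were chosen for having both effects called in the same direction, which favours a called mean. A called mean does not show that each effect held. No paired analysis was possible because the labels give no replicate numbers. The cause of these shifts was not tested. With 3 libraries a group, a difference that missed the threshold is not shown to be absent.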

Other observations

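The 4 heterozygous RH libraries lay between RH cohort WT and RH HOMO for both sets of called genes. The genes called in KO gave -1.24, -1.27, -1.20 and -1.42, and the genes called in RH HOMO gave 0.16, 0.05, 0.36 and 0.30, as mean log2 CPM of rises minus that of falls. The genes called in RH HOMO were chosen for a gap between that group and its wild type, which favours other libraries falling within it. On those genes KO, at 0.04 to 0.21, and KO cohort WT, at -0.70 to -0.59, also fell within this gap. Whether the heterozygous levels reflect the number of RH alleles was not tested.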
